A study of Mus musculus with 18 samples.

Results

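PreCFU-E, erythroid progenitors of the mouse bone marrow that precede the colony-forming CFU-E stage, were compared between mice with Scf deleted in Lepr-Cre-expressing stroma and floxed controls. The comparison took the 3 PreCFU-E libraries labelled KO/FL;Lepr-Cre against the 3 labelled FL/FL, 6 of the 18 libraries of the series. They were chosen by their genotype and cell type labels, and every gene was examined. In KO/FL;Lepr-Cre mice, called Lepr-Cre mice below, a null copy of Scf stands opposite a floxed copy, and Cre is expressed under the control of the leptin receptor gene. The floxed copy is therefore lost in Lepr-expressing cells, and the null copy is present in every cell of these animals. FL/FL mice have floxed copies and no Cre, and their Scf gene is the unrecombined control. PreCFU-E of KO/FL mice, which have the null copy without Cre, gave 3 more libraries, so that the null copy can be viewed apart from Cre. CFU-E of the Lepr-Cre and FL/FL mice gave 6 more. The mice of replicates A and C were male and those of replicate B female in each genotype, and the sources used here give neither their ages nor their strain background. Each PreCFU-E library was made from a separate animal and held the RNA of sorted cells.

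Scf, whose official symbol is Kitl, codes for stem cell factor, the ligand of the receptor tyrosine kinase KIT, and in adult marrow much of it is made by perivascular stromal cells that express the leptin receptor. KIT signals through adaptor proteins to RAS and ERK and to PI3K, and ERK in turn induces phosphatases and SPRY and SPRED proteins that restrain the pathway. Early erythroid progenitors depend on KIT, and later ones on erythropoietin, which acts through its receptor, JAK2 and STAT5 before haemoglobin, haem and the red cell membrane are made.

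Levels below are given per library in the order A, B and C, and means are ± SD over 3 libraries. Library totals were 7281009, 9325063 and 7788825 counts in Lepr-Cre mice and 9389122, 6733640 and 7046099 counts in FL/FL mice, and 11709 to 12469 genes were detected in these 6 libraries. Between replicates of a genotype, chi-square over its degrees of freedom was 11.96 to 15.54, so none was a repeat of another. On the first principal component of the 9 PreCFU-E libraries, with 25.9% of the variance, Lepr-Cre libraries lay at -31.3 to -26.8, KO/FL libraries at 2.16 to 15.8 and FL/FL libraries at 18.9 to 21.6. The second, with 15.3%, set the 3 B libraries, from female mice, apart from the A and C libraries. The sorted cells were checked against markers fixed with the design. The 13 erythroid progenitor markers, Gata1, Klf1 and Epor among them, summed to 7674 to 8663 CPM (counts scaled to a common library total) in Lepr-Cre and 7295 to 7924 CPM in FL/FL libraries. Markers of neutrophils and monocytes summed to 3.08 to 4.28 against 3.47 to 6.49 CPM, of mast cells, basophils and eosinophils to 0.456 to 3.999 against 0.445 to 3.77 CPM, of B cells to 0.259 to 2.34 against 0.210 to 4.89 CPM, and of T and NK cells to 1.59 to 4.83 against 1.33 to 6.39 CPM. Macrophage markers summed to 1.52 to 7.63 against 2.82 to 3.77 CPM. The summed megakaryocyte and platelet markers were lower in every Lepr-Cre library, 53.4 to 56.8 against 68.9 to 82.3 CPM. Ppbp, Gp6 and Mmrn1 were among those at 0 in all 6. Gp1ba, Gp5 and Plek were each lower in every Lepr-Cre library, as were 12.5% of all tested genes. Gp1ba and Gp5 did not pass in edgeR (adjusted p = 0.244 and 0.113). Plek passed with 7 against 131 counts, but not without Lepr-Cre A, Lepr-Cre B, FL/FL A, FL/FL B or FL/FL C. Itga2b overlapped between the groups, and Vwf averaged 24.1 against 23.7 CPM. The endothelial sum was also lower, 21.1 to 30.01 against 42.1 to 48.6 CPM with Cdh5 at 0. Most of it was Plvap, the called member, with means of 12.2 against 28.3 CPM, and Pecam1, with 10.7 against 14.7 CPM. Emcn (0.345 against 0.200 CPM) and Stab2 (0.337 against 0.0349 CPM) had higher means in Lepr-Cre mice. Stromal markers summed to 15.5 to 29.1 against 10.97 to 16.8 CPM with Col1a1 and Adipoq at 0. Kitl had 0 counts in all 6 libraries, and the deletion in stroma cannot be seen in these cells. A 0 in every library of this table is weak evidence of absence, since Cdt1, which licenses DNA replication, was also listed at 0 in all of them. The part of the markers that differed in the gene results was not tested. In sorted populations fewer cells of a kind and less RNA per cell cannot be told apart.

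In Lepr-Cre PreCFU-E some genes that ERK induces were lower, with Dusp6 and Ccnd1 without a single count. Of 21 tested genes of the erythropoietin and STAT5 list 8 were higher and 1 lower. Of 28 tested genes of the RAS-ERK list 1 was higher and 4 lower. Of 18 of the immediate-early and ETV list 0 were higher and 3 lower. The shares called of these lists were 42.9%, 17.9% and 16.7%, against 6.13% of all tested genes. Genes of the red cell membrane, haem synthesis, DNA replication and amino acid supply that passed were mostly higher, and transcription factor genes of early progenitors, Gata2, Myb and Hhex, were lower. edgeR called 632 of 10309 tested genes at an adjusted p under 0.05 (6.13%), 298 higher (2.89%) and 334 lower (3.24%). A fit blocked on the replicate letter, taken here to pair the libraries, called 1586, 856 higher and 730 lower. Without Lepr-Cre B, Lepr-Cre C, FL/FL B or FL/FL C the unblocked fit called 371, 387, 416 or 386 genes, and male mice alone gave 193. The share called grew with the level of a gene. Under 5 CPM it was 1.83% of 1365 genes, from 5 to 20 CPM 4.68% of 1988, from 20 to 100 CPM 5.8% of 4273 and from 100 CPM 9.91% of 2683. Most changes of abundant genes were small: of the 157 higher and 109 lower genes of at least 100 CPM, 10 and 7 differed by more than 2-fold. The median log2 fold change of all tested genes was 0.00, and the 3 Lepr-Cre libraries lay entirely above the 3 FL/FL libraries for 12.7% of genes and entirely below them for 12.5%.

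**Figure D1:**
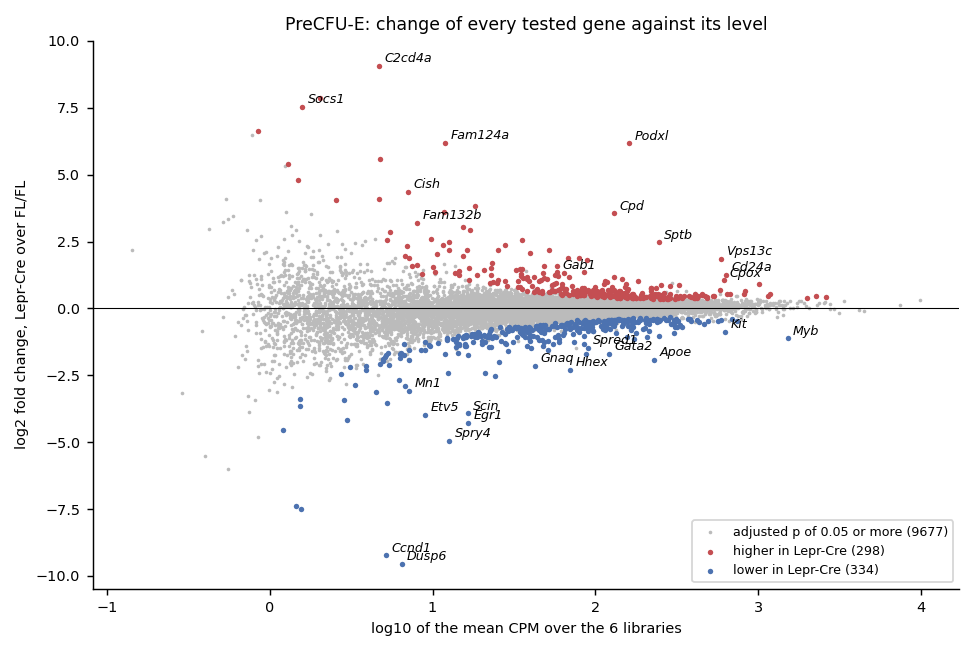
Each point is 1 of the 10309 tested genes, with the log10 of its mean CPM over the 6 libraries on the x axis and the log2 fold change of Lepr-Cre over FL/FL on the y axis. The 298 genes called higher are red and the 334 called lower blue, and folds of genes without a count in 1 group, such as Dusp6, Ccnd1, Socs1 and C2cd4a, depend on the prior count of the fit.

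At the receptor itself, the Kit message was lower while messages of adaptor proteins that act next to it moved in both directions. Kit had 493, 446 and 383 CPM in Lepr-Cre mice, against 859, 841 and 740.3 CPM in FL/FL mice. The groups did not overlap (edgeR quasi-likelihood test, log2 fold change -0.88 with SE 0.12, adjusted p = 4.59e-05), and all cells had been enriched on KIT protein. Grb2, the adaptor that brings the RAS exchange factor SOS to the receptor, had 124, 116 and 128 CPM in Lepr-Cre mice, against 201, 177 and 202 CPM in FL/FL mice. It was lower in every Lepr-Cre library (log2 fold change -0.66 with SE 0.11, adjusted p = 0.000479). The docking proteins GAB1 and GAB2, which gather PI3K and the phosphatase SHP2, had the opposite direction. Gab1 had 87.02, 77.3 and 88.1 CPM in Lepr-Cre mice, against 31.3, 33.4 and 34.02 CPM in FL/FL mice, and Gab2 had 161, 131 and 121 CPM, against 43.3, 50.7 and 23.2 CPM. Both sets of libraries stood clear of each other (Gab1 log2 fold change 1.36 with SE 0.16, adjusted p = 7.24e-06; Gab2 log2 fold change 1.81 with SE 0.26, adjusted p = 0.00156). Vav1, an exchange factor for RAC, averaged 107 ± 2.84 against 151 ± 11.05 CPM (log2 fold change -0.49 with SE 0.11, adjusted p = 0.0103), with the adjusted p over the threshold without FL/FL B (0.0660). Socs1, an inhibitor of JAK kinases, had 78 counts in Lepr-Cre mice and 0 in FL/FL mice, at least 25.7-fold higher when 3 counts stand for the empty group (edgeR adjusted p = 0.0109), with the adjusted p over the threshold without Lepr-Cre B (0.0857). Of the 34 tested members of the list of KIT and proximal signalling genes, 3 were higher and 3 lower (5 and 9 in the blocked fit). The share called was 17.6%, against 6.13% of all genes, and the median log2 fold change was -0.17. The phosphatase gene Ptpn11 (log2 fold change 0.07) and the kinase genes Akt1 (0.06) and Pdpk1 (0.15) did not pass.

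A few genes that ERK switches on were lower, and Dusp6 and Ccnd1 had no count at all. Dusp6, a phosphatase of ERK whose gene ERK induces, had no count in any Lepr-Cre library, against 12.6, 14.97 and 11.2 CPM in FL/FL mice. Its 302 counts in FL/FL mice and none in Lepr-Cre mice put it at least 102-fold lower (adjusted p = 4.60e-07 by edgeR). Dusp6 lies within 5 Mb of the altered Kitl locus, and the part of the locus in its value was not tested. ERK activity was not measured. Ccnd1, cyclin D1, had no count in Lepr-Cre mice, against 12.9, 13.05 and 5.28 CPM in FL/FL mice, at least 83.9-fold lower over 249 counts (adjusted p = 1.89e-05). FL/FL C had less of it than the other FL/FL libraries, yet stood clear of 0. Spry4, an inhibitor of receptor tyrosine kinase signalling, had 2.34, 0 and 0.129 CPM in Lepr-Cre mice, against 28.9, 17.2 and 27.2 CPM in FL/FL mice (log2 fold change -4.94 with SE 0.76, adjusted p = 0.00231). Among the Lepr-Cre libraries A held nearly all of its counts. The RAS inhibitor genes Spred1 and Spred2 kept a sizeable level. Spred1 had 39.7, 51.02 and 51.9 CPM in Lepr-Cre mice, against 138, 137 and 121 CPM in FL/FL mice (log2 fold change -1.47 with SE 0.14, adjusted p = 5.56e-07). Spred2 averaged 56.1 ± 13.5 in Lepr-Cre and 103 ± 2.37 CPM in FL/FL mice (log2 fold change -0.88 with SE 0.16, adjusted p = 0.00123), and neither gene's groups overlapped. Hras, a RAS gene itself, was the riser of the list with 70.1, 86.6 and 82.1 CPM in Lepr-Cre mice, against 52.9, 52.2 and 48.3 CPM in FL/FL mice (log2 fold change 0.64 with SE 0.18, adjusted p = 0.0397), a call with the adjusted p over the threshold without Lepr-Cre B (0.151), Lepr-Cre C (0.111), FL/FL A (0.0911), FL/FL B (0.0899) or FL/FL C (0.125). In all, 1 were higher and 4 lower (2 and 8 in the blocked fit) of the 28 tested RAS-ERK genes. Their median was -0.14 and their share called 17.9%, against 6.13% of all genes. Kinase genes of the cascade that did not pass included Braf, Map2k1 and Mapk3, with log2 fold changes of -0.04 for Braf, 0.19 for Map2k1 and -0.18 for Mapk3.

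Of the tested transcription factor and other genes that respond early to ERK, Etv5, Egr1 and Ier2 passed, all lower. Etv5, an ETS factor, had 1.52, 1.14 and 0.517 CPM in Lepr-Cre mice, against 13.4, 14.2 and 23.2 CPM in FL/FL mice (log2 fold change -3.98 with SE 0.48, adjusted p = 7.63e-06). Egr1, an immediate-early zinc finger factor, had 2.21, 1.48 and 1.16 CPM, against 20.7, 60.5 and 12.9 CPM (log2 fold change -4.27 with SE 0.61, adjusted p = 0.00125). No library of either gene crossed between groups, though FL/FL B had several times the Egr1 of the other FL/FL libraries. Ier2, another immediate-early gene, averaged 14.8 ± 1.53 against 31.3 ± 11.9 CPM (log2 fold change -1.08 with SE 0.26, adjusted p = 0.0126), with the adjusted p over the threshold without Lepr-Cre B (0.0556) or FL/FL B (0.133). Of 18 tested immediate-early and ETV genes 0 were higher and 3 lower, 16.7% against 6.13% of all genes, and the median was -0.60. Fos averaged 7.32 ± 12.2 against 20.5 ± 20.9 CPM and did not pass (adjusted p = 0.753). Myc, whose product drives growth, averaged 601 ± 53.1 against 627 ± 54.8 CPM, a log2 fold change of -0.06.

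**Figure D2:**
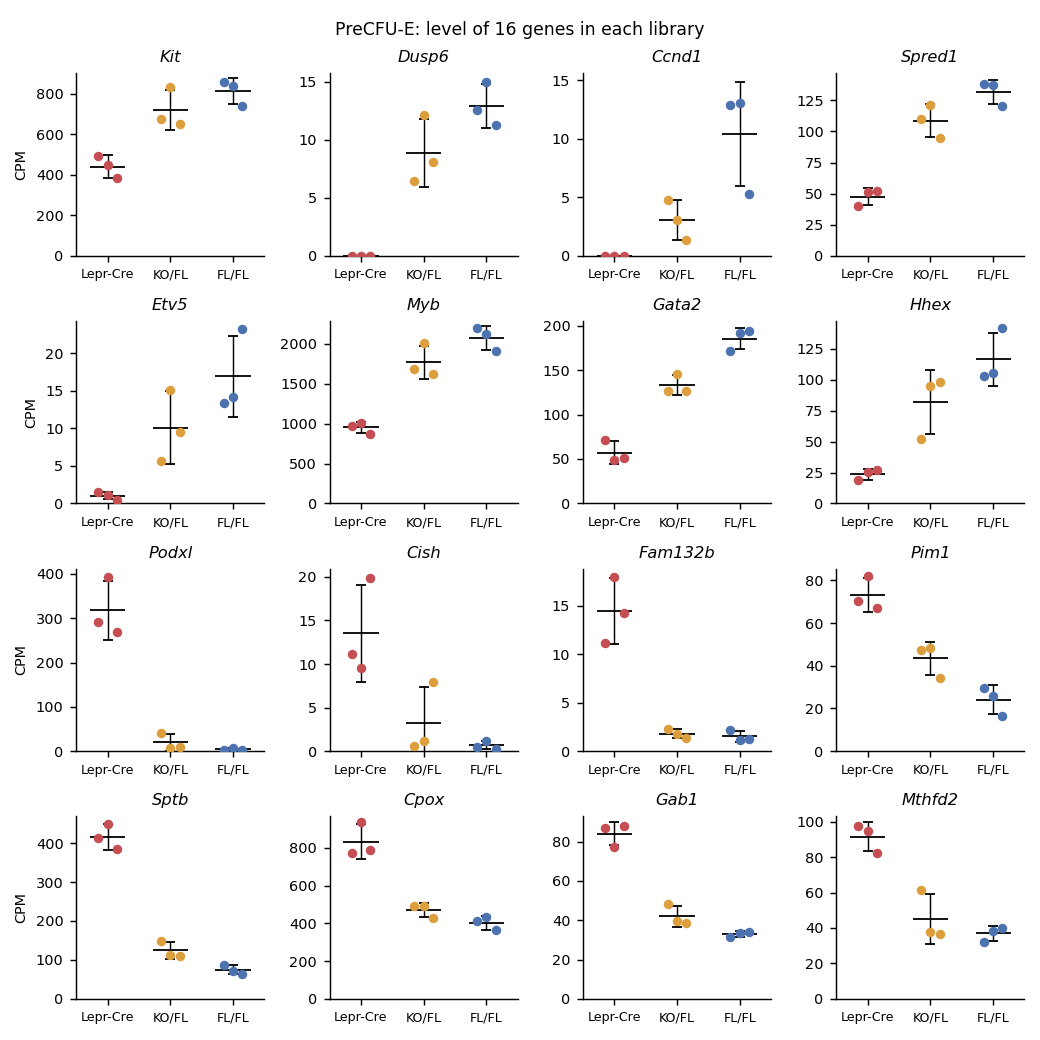
Each panel gives the CPM of 1 gene in the 9 PreCFU-E libraries, a point per library in the order A, B, C, with the group mean as a line and its SD as bars, and each y axis starts at 0. For Kit, Dusp6, Ccnd1, Spred1, Etv5, Myb, Gata2 and Hhex all Lepr-Cre points lie below the FL/FL points, and for the other 8 genes above them. KO/FL points are drawn between.

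On the erythropoietin side, several targets of STAT5 were higher, others did not pass, and neither the receptor nor its kinase was called. Cish, a feedback inhibitor of the erythropoietin receptor and a direct STAT5 target, had 11.2, 9.57 and 19.9 CPM in Lepr-Cre mice, against 0.524, 1.19 and 0.278 CPM in FL/FL mice. Every Lepr-Cre library was several times above the highest FL/FL library (log2 fold change 4.35 with SE 0.80, adjusted p = 0.00234). Pim1, a survival kinase, had 70.5, 82.2 and 66.9 CPM in Lepr-Cre mice, against 29.6, 25.9 and 16.5 CPM in FL/FL mice (log2 fold change 1.60 with SE 0.21, adjusted p = 2.05e-05). Osm, the cytokine oncostatin M, had 16.1, 29.2 and 35.3 CPM, against 7.44, 6.08 and 4.17 CPM (log2 fold change 2.18 with SE 0.34, adjusted p = 0.0002496). Both were separated between the groups. Fam132b codes for erythroferrone, the hormone by which erythroblasts lower hepcidin in the liver. It had 11.2, 17.99 and 14.2 CPM in Lepr-Cre mice, against 2.199, 1.19 and 1.25 CPM in FL/FL mice (log2 fold change 3.19 with SE 0.49, adjusted p = 0.000191), and its groups did not overlap. Serpina3g, one of a cluster of near-identical serpin genes whose reads may be shared, had 10.1, 9.57 and 7.11 CPM, against 0.524, 0 and 0.972 CPM (log2 fold change 4.09 with SE 0.93, adjusted p = 0.00926). Of 21 tested genes of the erythropoietin list 8 were higher and 1 lower (8 and 4 in the blocked fit). Their median log2 fold change was 0.23, and 42.9% were called, against 6.13% of all genes. The member that was lower in the unblocked fit was Stat5b, a STAT5 gene. It had 199, 214 and 174 CPM in Lepr-Cre mice, against 266, 261 and 248 CPM in FL/FL mice (log2 fold change -0.40 with SE 0.11, adjusted p = 0.0266). Its adjusted p was over the threshold without Lepr-Cre A (0.0620), Lepr-Cre C (0.149), FL/FL A (0.0976) or FL/FL B (0.0808). Stat5b is given because it was the lower call of the unblocked fit, chosen after its values were seen. Epor averaged 73.9 ± 4.797 against 63.8 ± 4.503 CPM (adjusted p = 0.475), Jak2 146 ± 23.2 against 185 ± 16.2 CPM (adjusted p = 0.104) and Stat5a 163 ± 0.635 against 207 ± 15.6 CPM (adjusted p = 0.0571).

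The promoters of Cish, of the erythropoietin list, and Gab1, of the KIT list, hold the STAT5 letters TTCNNNGAA close to the start. They are printed because the genes belong to the receptor pathways that moved. These 2 genes were picked, and whether promoters of Pim1, Osm, Fam132b, Serpina3g or Socs1 hold the letters is not given. The sequences are RefSeq's on GRCm38.p6, 100 bases before to 30 after an annotated start, with motif matches in capitals. Where a gene had several promoter entries, the one with the most matches is printed, for Cpox and Sptb below as well. Cish is at chr9:107296559-107296688, plus strand, with matches at positions 1 and 12 after the start, and Gab1 is at chr8:80880450-80880579, minus strand, with a match at position -12.
Cish: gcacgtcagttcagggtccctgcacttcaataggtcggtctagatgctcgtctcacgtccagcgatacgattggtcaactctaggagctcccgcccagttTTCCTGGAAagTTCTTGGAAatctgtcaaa
Gab1: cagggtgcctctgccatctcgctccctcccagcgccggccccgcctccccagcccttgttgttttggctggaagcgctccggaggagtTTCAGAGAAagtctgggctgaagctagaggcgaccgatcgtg
Over windows of 250 bases before to 50 after the start, searched on both strands, the STAT5 letters stood in 8.19% of the 7879 tested genes and 9.02% of all 15149 genes with a promoter, in 8.48% of the 224 genes called higher and in 7.23% of the 249 called lower that had one. A match describes letters and not a bound site.

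Other cytokine and growth factor receptors moved one way among the genes that passed in the unblocked fit. Of 30 tested, 0 were higher and 6 lower (1 and 8 in the blocked fit), 20% against 6.13% of all tested genes. Their median log2 fold change was -0.53, against 0.00 over all tested genes. Il17ra, a receptor chain for interleukin 17, had 118, 132 and 118 CPM in Lepr-Cre mice, against 225, 248 and 222 CPM in FL/FL mice (log2 fold change -0.91 with SE 0.12, adjusted p = 3.55e-05). Tgfbr2, the type II receptor of TGF-beta, had 26.1, 19.02 and 18.9 CPM, against 48.1, 42.7 and 43.6 CPM (log2 fold change -1.07 with SE 0.21, adjusted p = 0.00224). Each gene was lower in all 3 Lepr-Cre libraries than in any FL/FL library. Il1rl1, the receptor of interleukin 33, had 105, 83.1 and 85.5 CPM in Lepr-Cre mice, against 194, 153 and 121 CPM in FL/FL mice (log2 fold change -0.78 with SE 0.15, adjusted p = 0.00244). Ifngr1 averaged 237 ± 27.4 against 359 ± 35.7 CPM (log2 fold change -0.60 with SE 0.12, adjusted p = 0.00268), and Igf1r, the insulin-like growth factor receptor, 255 ± 14.6 against 355 ± 5.78 CPM (log2 fold change -0.48 with SE 0.11, adjusted p = 0.006701). None of these groups overlapped. Pdgfrb, a receptor of stromal and perivascular cells, had 1.24, 1.37 and 1.29 CPM, against 6.81, 6.97 and 5.83 CPM (log2 fold change -2.31 with SE 0.59, adjusted p = 0.0198), with the adjusted p over the threshold without Lepr-Cre B (0.0540), Lepr-Cre C (0.0581), FL/FL A (0.0678) or FL/FL B (0.0716). It is also one of the stromal markers, whose sum was given above, and the part of other cells in this value was not tested. Of 20 tested TGF-beta, BMP, Notch and WNT genes, 0 were higher and 3 lower (1 and 6 in the blocked fit), 15% against 6.13%. The count called was 1 without Lepr-Cre B or Lepr-Cre C or FL/FL A. Smad7, the inhibitory SMAD induced by TGF-beta, had 7.72, 4.78 and 10.3 CPM in Lepr-Cre mice, against 20.8, 17.2 and 23.2 CPM in FL/FL mice (log2 fold change -1.43 with SE 0.32, adjusted p = 0.00716).

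Among transcription factors, several of early progenitors were lower and a few erythroid ones higher. Gata2, which early progenitors carry and erythroid cells replace by Gata1, had 71.7, 48.5 and 51.5 CPM in Lepr-Cre mice, against 171, 191 and 194 CPM in FL/FL mice. The lowest FL/FL library had more than the highest Lepr-Cre library by a wide margin (log2 fold change -1.70 with SE 0.14, adjusted p = 7.43e-08). Gata1 itself averaged 229 ± 32.6 against 218 ± 9.205 CPM and did not pass (adjusted p = 0.811). Myb, which keeps progenitors dividing, had 969.8, 1010.0 and 875 CPM in Lepr-Cre mice, against 2192, 2117 and 1909 CPM in FL/FL mice (log2 fold change -1.12 with SE 0.11, adjusted p = 1.19e-06). Hhex, a homeobox factor of early haematopoietic and endothelial cells, had 18.6, 25.5 and 27.04 CPM, against 103, 105 and 141 CPM (log2 fold change -2.29 with SE 0.22, adjusted p = 3.78e-06). Both were separated. Nfe2, a factor shared by the erythroid and megakaryocytic branches, averaged 69.3 ± 11.5 in Lepr-Cre and 124 ± 8.47 CPM in FL/FL mice (log2 fold change -0.84 with SE 0.16, adjusted p = 0.00192). In the other direction, Sox6, which acts in definitive erythroid maturation, had 28.7, 40.2 and 36.7 CPM in Lepr-Cre mice, against 8.38, 13.2 and 11.4 CPM in FL/FL mice (log2 fold change 1.69 with SE 0.29, adjusted p = 0.000753). Tal1, a partner of GATA1, averaged 437 ± 27.6 against 314 ± 37.5 CPM (log2 fold change 0.48 with SE 0.11, adjusted p = 0.00838), with the adjusted p over the threshold without FL/FL C (0.0799). Of 34 tested factors 3 were higher and 8 lower, 32.4% against 6.13% of all genes, with a median of -0.22. The count called was 7 without Lepr-Cre B or Lepr-Cre C. Klf1, the master factor of red cell genes, averaged 270.0 ± 32.7 against 240.3 ± 9.55 CPM (adjusted p = 0.416).

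Genes of less mature progenitors fell where they passed. Mn1, a transcriptional coactivator gene, had 1.38, 1.48 and 1.68 CPM in Lepr-Cre mice, against 16.9, 9.64 and 11.9 CPM in FL/FL mice (log2 fold change -3.07 with SE 0.43, adjusted p = 6.27e-05). Angpt1, angiopoietin 1, had 17.5, 14.5 and 31.6 CPM, against 44.4, 59.9 and 73.9 CPM (log2 fold change -1.49 with SE 0.27, adjusted p = 0.002296). The groups of both genes stayed apart. Sox4 averaged 24.8 ± 4.85 against 53.2 ± 3.21 CPM (log2 fold change -1.10 with SE 0.24, adjusted p = 0.00716). Of the 20 tested early progenitor genes 0 were higher and 4 lower (1 and 6 in the blocked fit), 20% against 6.13% of all genes. Their median was -0.42. Among genes tied to glucocorticoids and to the renewal of erythroid progenitors, Zbtb16, a zinc finger repressor, had 13.9, 10.9 and 17.98 CPM in Lepr-Cre mice, against 40.7, 49.96 and 39.7 CPM in FL/FL mice (log2 fold change -1.61 with SE 0.23, adjusted p = 7.39e-05). Txnip, an inhibitor of thioredoxin and of glucose uptake, had 80.5, 130.1 and 111 CPM, against 227, 232 and 256 CPM (log2 fold change -1.15 with SE 0.19, adjusted p = 0.00347). The glucocorticoid receptor gene Nr3c1 averaged 165 ± 17.8 against 243 ± 11.9 CPM (log2 fold change -0.56 with SE 0.14, adjusted p = 0.0255), with the adjusted p over the threshold without Lepr-Cre B (0.0922), Lepr-Cre C (0.118), FL/FL A (0.0926) or FL/FL B (0.0808). Of 15 tested members 0 were higher and 3 lower (1 and 5 in the blocked fit), 20% against 6.13% of all genes. Bmi1, a renewal gene, had a log2 fold change of 0.05 and did not pass.

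The red cell membrane skeleton was among the lists with a high share called: 7 were higher and 0 lower of 16 tested, or 43.8% against 6.13% of all genes. Its median log2 fold change was 0.43, and the count called was 4 without Lepr-Cre A or Lepr-Cre B or FL/FL B. Sptb, the beta chain of erythroid spectrin, had 413, 450.2 and 385 CPM in Lepr-Cre mice, against 87.9, 72.6 and 64.005 CPM in FL/FL mice. The smallest p of the comparison belonged to it (log2 fold change 2.47 with SE 0.14, adjusted p = 4.34e-11). Add2, the adducin that caps and links the skeleton, had 412, 433 and 431 CPM in Lepr-Cre mice, against 239, 229 and 224 CPM in FL/FL mice (log2 fold change 0.88 with SE 0.10, adjusted p = 5.40e-06). Ank1, ankyrin, averaged 764 ± 97.4 against 522 ± 52.1 CPM (log2 fold change 0.55 with SE 0.12, adjusted p = 0.00535), a call that the 3 limma fits (adjusted p = 0.0667 to 0.109) and male mice alone (0.143) did not make, and Tpm1, a tropomyosin, 153 ± 6.97 against 109 ± 5.57 CPM (log2 fold change 0.49 with SE 0.11, adjusted p = 0.00894). Each of these genes was higher in all 3 Lepr-Cre libraries. Add1 and Add3, adducins that are not restricted to red cells, had log2 fold changes of -0.19 and -0.02 and did not pass. Per kilobase of annotated exon Sptb stood at 34.2 CPM in Lepr-Cre and 6.16 CPM in FL/FL mice.

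Surface proteins of red cells followed in part: of 23 tested, 6 were higher and 0 lower (9 and 1 in the blocked fit). Their share called was 26.1%, against 6.13% of all genes, and their median 0.20. Rhag, the Rh-associated glycoprotein, had 213, 194 and 187 CPM in Lepr-Cre mice, against 111, 83.3 and 81.9 CPM in FL/FL mice (log2 fold change 1.10 with SE 0.15, adjusted p = 4.59e-05). Cldn13, a claudin of mouse erythroid cells, had 36.5, 44.6 and 71.4 CPM, against 21.7, 18.7 and 14.7 CPM (log2 fold change 1.47 with SE 0.24, adjusted p = 0.000394). Both pairs of groups were separate. Trpv2, a cation channel, averaged 60.5 ± 8.27 against 29.8 ± 7.98 CPM (log2 fold change 1.02 with SE 0.20, adjusted p = 0.00323), and Slc29a1, a nucleoside transporter, 157 ± 10.96 against 95.6 ± 8.06 CPM (log2 fold change 0.72 with SE 0.12, adjusted p = 0.000534). Aqp1, the water channel, averaged 801 ± 99.5 against 859 ± 36.2 CPM and did not pass (adjusted p = 0.689).

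Genes of haem synthesis and iron uptake were higher among those that passed. Cpox, coproporphyrinogen oxidase, had 771, 938 and 789 CPM in Lepr-Cre mice, against 413, 435 and 363 CPM in FL/FL mice (log2 fold change 1.05 with SE 0.11, adjusted p = 2.87e-06). No library crossed between the groups. The mitochondrial transporter genes Abcb6 and Abcb10 averaged 72.4 ± 6.12 against 38.3 ± 5.76 CPM (log2 fold change 0.92 with SE 0.17, adjusted p = 0.00154) and 103 ± 8.32 against 61.4 ± 8.85 CPM (log2 fold change 0.75 with SE 0.14, adjusted p = 0.00224). Alas2, the erythroid first step, was hardly read, with a mean of 0.616 ± 0.436 against 0.5205 ± 0.519 CPM, and was not tested. Of 25 tested haem genes 5 were higher and 0 lower (9 and 2 in the blocked fit), with a median of 0.25. Of 21 iron handling genes 5 were higher and 1 lower, with a median of 0.10. Their count called was 3 without Lepr-Cre C or FL/FL A. Shares called were 20% of the haem and 28.6% of the iron list, against 6.13% of all genes. Tfrc, the transferrin receptor, had 876, 657 and 629 CPM in Lepr-Cre mice, against 535, 437 and 369 CPM in FL/FL mice (log2 fold change 0.69 with SE 0.14, adjusted p = 0.00625). Aco1, an iron sensor, was lower with 66.9, 77.7 and 60.02 CPM in Lepr-Cre mice, against 107, 103 and 90.1 CPM in FL/FL mice (log2 fold change -0.55 with SE 0.14, adjusted p = 0.0198), with the adjusted p over the threshold without Lepr-Cre A (0.0604), Lepr-Cre C (0.105), FL/FL A (0.0865) or FL/FL B (0.0706). Globin messages stayed near the floor: Hbb-bt, which shares sequence with Hbb-bs, had 70 counts in Lepr-Cre and 2 in FL/FL mice, with the adjusted p over the threshold without Lepr-Cre B (0.123), Lepr-Cre C (0.205), FL/FL A (0.190), FL/FL B (0.165) or FL/FL C (0.0661), and Hba-a1 averaged 5.62 ± 0.986 against 1.02 ± 1.29 CPM and did not pass.

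Promoter windows of Cpox and Sptb are printed since these genes lead the haem and membrane lists, with capitals at the GATA letters AGATAA, on the other strand for Cpox, and at the KLF1 letters CCNCNCCC for Sptb. Cpox is at chr16:58670108-58670237, plus strand, with the match at position 5, and Sptb at chr12:76710518-76710647, minus strand, with the match at position -96.
Cpox: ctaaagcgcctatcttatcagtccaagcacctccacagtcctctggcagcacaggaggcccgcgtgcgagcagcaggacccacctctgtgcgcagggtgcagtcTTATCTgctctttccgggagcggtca
Sptb: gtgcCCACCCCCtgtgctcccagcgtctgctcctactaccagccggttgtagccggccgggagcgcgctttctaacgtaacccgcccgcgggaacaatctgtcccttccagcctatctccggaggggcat
In the same windows as before, AGATAA stood in 11.2% of the higher, 7.23% of the lower and 7.58% of the 7879 tested genes with a promoter. CCNCNCCC was common everywhere, in 73.7% of the higher, 81.5% of the lower and 72.6% of the tested genes. The ETS letters CCGGAA stood in 31.2%, 22.5% and 34.6%, the AP-1 letters TGANTCA in 6.25%, 5.62% and 5.41% and the E-box CACGTG in 13.4%, 10.4% and 12.4% of the higher, lower and tested genes. Over all 15149 genes the shares were 61.7% for CCNCNCCC, 22.1% for CCGGAA, 8.28% for TGANTCA and 9.4% for CACGTG.

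Cyclins of the G1 phase moved in opposite directions. While Ccnd1 had no count, Ccne1, cyclin E1, which drives entry into S phase, had 165, 154 and 144 CPM in Lepr-Cre mice, against 78.1, 72.05 and 75.5 CPM in FL/FL mice (log2 fold change 1.03 with SE 0.13, adjusted p = 1.89e-05). Ccnd2 and Ccnd3, the other D cyclins, had log2 fold changes of 0.11 and -0.02 and did not pass. Rgcc, a regulator of the cell cycle, had 22.6, 14.01 and 28.3 CPM in Lepr-Cre mice, against 1.05, 2.52 and 1.805 CPM in FL/FL mice, with no overlap (log2 fold change 3.61 with SE 0.51, adjusted p = 7.34e-05). E2f4, an E2F factor that erythroid expansion depends on, averaged 443 ± 23.6 against 329 ± 3.85 CPM (log2 fold change 0.43 with SE 0.10, adjusted p = 0.0105). Of 28 tested genes of this list 6 were higher and 3 lower, with a median of 0.08 and a count called of 4 without Lepr-Cre C or FL/FL A. Replication genes passed in one direction, as 6 were higher and 0 lower (16 and 0 in the blocked fit) of 41 tested, with a median of 0.25 and a count called of 1 without FL/FL A. Rrm2, the regulated subunit of ribonucleotide reductase, had 230.2, 236 and 272 CPM in Lepr-Cre mice, against 124, 122 and 112 CPM in FL/FL mice (log2 fold change 1.04 with SE 0.12, adjusted p = 3.78e-06). The other members that passed differed less, with log2 fold changes of 0.39 for Mcm5 to 0.54 for Chaf1b. Mcm5 had the adjusted p over the threshold without Lepr-Cre B (0.0785), Lepr-Cre C (0.0702), FL/FL A (0.0766) or FL/FL C (0.119), and Chaf1b had the adjusted p over the threshold without Lepr-Cre A (0.0896), Lepr-Cre B (0.0541), Lepr-Cre C (0.0797), FL/FL A (0.164) or FL/FL C (0.0526). Of 35 mitosis genes 6 were higher and 0 lower (12 and 1 in the blocked fit), with a median of 0.15 and a count called of 2 without FL/FL C. Cdc20, the activator of the anaphase-promoting complex, had 123, 149.8 and 133 CPM in Lepr-Cre mice, against 84.7, 78.4 and 92.2 CPM in FL/FL mice (log2 fold change 0.67 with SE 0.13, adjusted p = 0.00283). Kif23, a kinesin of cytokinesis, averaged 111 ± 5.0995 against 71.6 ± 6.35 CPM (log2 fold change 0.63 with SE 0.13, adjusted p = 0.00506). Of 55 histone genes, whose copies share sequence, 5 were higher and 0 lower (18 and 1 in the blocked fit). Their median was 0.25, and the count called was 1 without Lepr-Cre C. Shares called were 32.1% of the G1 list, 14.6% of replication, 17.1% of mitosis and 9.09% of histone genes. They stood against 6.13% of all genes and 9.91% of genes of at least 100 CPM. The blocked fit also called more genes over the whole table, as given above. Mki67, which marks dividing cells, had a log2 fold change of 0.20 and did not pass.

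Genes of serine, one-carbon and amino acid supply were higher where they passed. Mthfd2, a mitochondrial folate enzyme, had 97.6, 94.8 and 82.4 CPM in Lepr-Cre mice, against 32.2, 38.5 and 39.99 CPM in FL/FL mice (log2 fold change 1.31 with SE 0.19, adjusted p = 6.93e-05). Atf4, the transcription factor of the amino acid response, had 249, 260.5 and 307 CPM, against 159, 181 and 155 CPM (log2 fold change 0.73 with SE 0.12, adjusted p = 0.000323). In both genes all Lepr-Cre libraries lay above the FL/FL libraries. Cars, the cysteine tRNA synthetase, averaged 147 ± 10.3 against 95.4 ± 4.93 CPM (log2 fold change 0.63 with SE 0.13, adjusted p = 0.00344). Of 34 tested members of the serine, one-carbon and ATF4 list 7 were higher and 0 lower (13 and 0 in the blocked fit), with a median of 0.29 and a count called of 4 without Lepr-Cre B or FL/FL C. Among 17 cytosolic synthetases 5 were higher and 0 lower (12 and 0 in the blocked fit). Their median was 0.33, and the count called was 1 without Lepr-Cre B or FL/FL C. These lists were called at 20.6% and 29.4%, against 6.13% of all genes. Asns and Ddit3, which the stress arm of ATF4 also raises, had log2 fold changes of 0.08 and -0.38 and did not pass. Txnrd1, thioredoxin reductase, had 285, 304 and 243 CPM in Lepr-Cre mice, against 144, 214 and 136 CPM in FL/FL mice (log2 fold change 0.75 with SE 0.14, adjusted p = 0.00262). Odc1, the first enzyme of polyamine synthesis, averaged 489 ± 48.8 against 335 ± 12.5 CPM (log2 fold change 0.55 with SE 0.11, adjusted p = 0.00219), and the glycolytic enzyme gene Pfkm 231 ± 4.78 against 156 ± 2.66 CPM (log2 fold change 0.56 with SE 0.12, adjusted p = 0.00656).

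**Figure D3:**
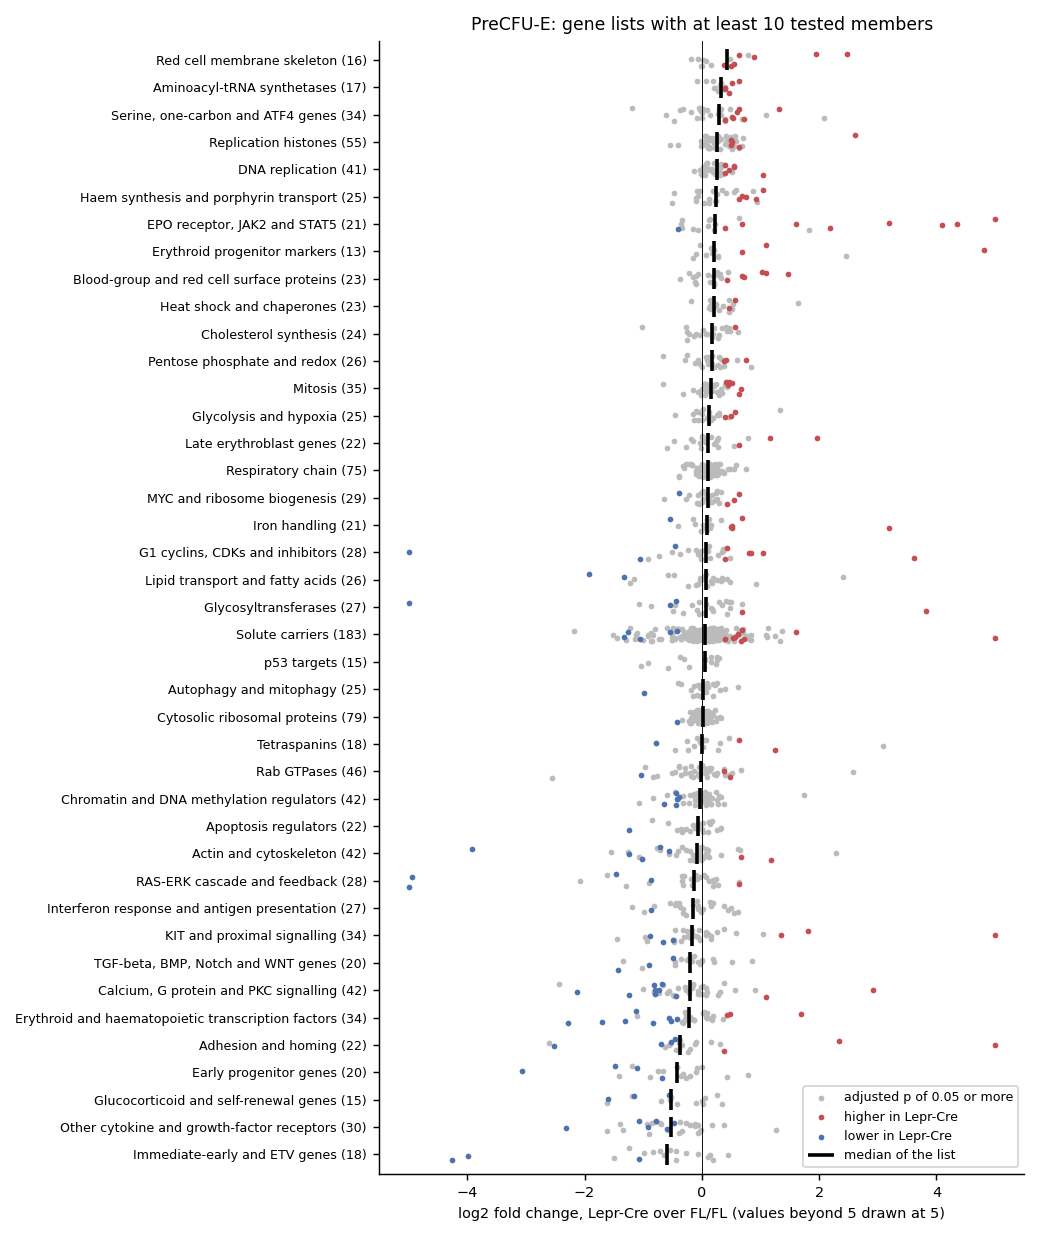
Each row is 1 of the 41 gene lists with at least 10 tested members, ordered by median, and each point is a member at its log2 fold change of Lepr-Cre over FL/FL. Members called higher are red, those called lower blue, and the black bar is the list's median, which runs from -0.60 for immediate-early and ETV genes to 0.43 for the red cell membrane skeleton.

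Solute carriers were called at a share near that of all genes, 7.65% against 6.13%: 9 were higher and 5 lower (22 and 11 in the blocked fit) of 183 tested, with a median of 0.05 and a count called of 6 without Lepr-Cre B. Slc39a8, a zinc and manganese importer, had 78.1, 86.7 and 97.8 CPM in Lepr-Cre mice, against 29.7, 34.5 and 22.4 CPM in FL/FL mice (log2 fold change 1.60 with SE 0.23, adjusted p = 0.000194). Slc22a3, an organic cation transporter, had 114, 104 and 86.4 CPM, against 203, 226 and 205 CPM (log2 fold change -1.06 with SE 0.12, adjusted p = 3.78e-06). Slc39a8 was higher and Slc22a3 lower, each without overlap. Slc8a1, the sodium-calcium exchanger, averaged 28.3 ± 4.68 against 67.98 ± 10.3 CPM (log2 fold change -1.27 with SE 0.19, adjusted p = 0.000103), and Slc25a23, a calcium-regulated mitochondrial carrier, 16.1 ± 3.99 against 40.4 ± 8.12 CPM (log2 fold change -1.32 with SE 0.24, adjusted p = 0.001099).

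Calcium and G protein signalling genes were mostly lower where they passed. Of 42 tested 2 were higher and 8 lower (4 and 13 in the blocked fit), 23.8% against 6.13% of all genes. Their median was -0.20, and the count called was 6 without Lepr-Cre B. Gnaq, the alpha subunit that activates phospholipase C beta, had 18.2, 12.1 and 16.9 CPM in Lepr-Cre mice, against 64.7, 63.4 and 79.1 CPM in FL/FL mice (log2 fold change -2.14 with SE 0.19, adjusted p = 1.92e-07). Its relative Gna15 averaged 73.5 ± 12.7 against 118 ± 9.81 CPM (log2 fold change -0.68 with SE 0.14, adjusted p = 0.00349), while Gna11 had a log2 fold change of 0.06 and did not pass. Adcy7, an adenylate cyclase, had 116, 115 and 129 CPM, against 189, 216 and 224 CPM (log2 fold change -0.80 with SE 0.11, adjusted p = 5.25e-05). Higher members were Cacna1c, the pore of an L-type calcium channel, and Prkcq, protein kinase C theta. Cacna1c had 43.4, 20.95 and 25.4 CPM in Lepr-Cre mice, against 3.98, 4.299 and 3.47 CPM in FL/FL mice (log2 fold change 2.93 with SE 0.35, adjusted p = 6.81e-06). Prkcq had 53.4, 56.03 and 45.1 CPM, against 21.4, 26.4 and 24.9 CPM (log2 fold change 1.09 with SE 0.19, adjusted p = 0.000842). The groups of all these genes that passed were separate.

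At the cell surface Podxl, a sialomucin related to CD34, was low in FL/FL mice and abundant in Lepr-Cre mice. It had 292, 393 and 269 CPM in Lepr-Cre mice, against 3.04, 8.01 and 2.499 CPM in FL/FL mice (log2 fold change 6.18 with SE 0.77, adjusted p = 0.00764), and per kilobase of exon it stood at 57.9 CPM in Lepr-Cre and 0.822 CPM in FL/FL mice. Cpd, a carboxypeptidase of the secretory pathway, had 290.3, 286 and 148 CPM, against 20.1, 26.8 and 14.7 CPM (log2 fold change 3.56 with SE 0.47, adjusted p = 0.00716). The Lepr-Cre libraries of both were far above every FL/FL library, and Lepr-Cre C had less Cpd than A and B. Fam124a, a gene of unassigned function, averaged 23.6 ± 6.13 against 0.327 ± 0.444 CPM (log2 fold change 6.20 with SE 0.68, adjusted p = 6.70e-06). Amigo2, an adhesion protein, had 5.93, 10.4 and 5.17 CPM in Lepr-Cre mice, against 50.5, 33.5 and 39.6 CPM in FL/FL mice (log2 fold change -2.51 with SE 0.29, adjusted p = 6.18e-06). Of 22 adhesion and homing genes 3 were higher and 4 lower, 31.8% against 6.13% of all genes. The count called was 3 without Lepr-Cre A or Lepr-Cre B or FL/FL C. Glycosyltransferases build the sugars of surface proteins. Among the 27 tested 2 were higher and 3 lower (5 and 4 in the blocked fit), 18.5% against the same 6.13%. St3gal6, a sialyltransferase, had 22.3, 33.8 and 45.9 CPM in Lepr-Cre mice, against 1.78, 0.296 and 5.14 CPM in FL/FL mice (log2 fold change 3.82 with SE 0.60, adjusted p = 0.00253). Fut7, a fucosyltransferase for selectin ligands, had no count in Lepr-Cre mice and 67 in FL/FL mice, at least 22.6-fold lower (adjusted p = 0.00975). Cd24a, a surface glycoprotein of erythroid progenitors, had 796, 971 and 896 CPM, against 374, 382 and 363 CPM (log2 fold change 1.25 with SE 0.11, adjusted p = 2.04e-07).

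Inside the cell, Scin, an actin-severing protein known from megakaryocytes and secretory cells, had 3.72, 0.569 and 1.94 CPM in Lepr-Cre mice, against 25.2, 31.9 and 35.7 CPM in FL/FL mice (log2 fold change -3.92 with SE 0.41, adjusted p = 2.87e-06). Lmna, the lamin A gene, had 189, 179.8 and 173 CPM, against 84.9, 77.2 and 78.03 CPM (log2 fold change 1.17 with SE 0.12, adjusted p = 7.13e-07). Myh10, a non-muscle myosin, averaged 1016 ± 165 against 639.6 ± 109 CPM (log2 fold change 0.67 with SE 0.14, adjusted p = 0.004996). Of 42 cytoskeleton genes 2 were higher and 5 lower (2 and 9 in the blocked fit), 16.7% against 6.13% of all genes. The count called was 4 without FL/FL C. Apoe, which carries lipids, had 77.5, 104 and 103 CPM in Lepr-Cre mice, against 310.0, 408 and 368 CPM in FL/FL mice (log2 fold change -1.93 with SE 0.21, adjusted p = 0.000205). Vps13c, a lipid transfer protein between organelles, had 959, 1131 and 674 CPM, against 292, 274 and 194 CPM (log2 fold change 1.86 with SE 0.24, adjusted p = 0.00203). None of these groups overlapped.

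Several lists had a share called under the 6.13% of all tested genes in the unblocked fit. For the interferon (3.7%), autophagy (4%) and apoptosis (4.55%) lists it was near that share. Of 79 cytosolic ribosomal protein genes 0 were higher and 1 lower (3 and 4 in the blocked fit), with a median of 0.02, and the count called was 0 with any 1 of the 6 libraries left out. Among 75 respiratory chain genes 0 were higher and 0 lower (5 and 0 in the blocked fit), with a median of 0.11, and among 15 p53 targets 0 were higher and 0 lower. Interferon response and antigen presentation genes had 27 tested, of which 0 were higher and 1 lower (0 and 4 in the blocked fit), and the count called was 0 without Lepr-Cre A or Lepr-Cre C or FL/FL B or FL/FL C. Autophagy and mitophagy genes had Pink1 lower, with 24.4, 24.1 and 31.4 CPM in Lepr-Cre mice, against 45.6, 51.9 and 60.7 CPM in FL/FL mice (log2 fold change -0.98 with SE 0.22, adjusted p = 0.00716), as their called member among 25 tested. Of 22 apoptosis regulators the survival gene Bcl2 passed, 12.4 ± 2.36 against 29.3 ± 4.79 CPM (log2 fold change -1.24 with SE 0.29, adjusted p = 0.009805), with the adjusted p over the threshold without Lepr-Cre B (0.0597). In the blocked fit 0 of these were higher and 3 lower. Bcl2l1, which codes for BCL-XL and which STAT5 can raise, had a log2 fold change of 0.14 and did not pass.

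Chromatin and DNA methylation regulators that passed in the unblocked fit were lower. Of 42 tested, 0 were higher and 5 lower (3 and 7 in the blocked fit), a share of 11.9% against 6.13% of all genes, and the count called was 2 without Lepr-Cre B or FL/FL A. Hdac4 and Hdac7, histone deacetylases that signalling moves in and out of the nucleus, averaged 69.3 ± 8.51 against 108 ± 12.8 CPM (log2 fold change -0.65 with SE 0.14, adjusted p = 0.00598) and 258 ± 7.65 against 348 ± 8.04 CPM (log2 fold change -0.43 with SE 0.10, adjusted p = 0.009502).

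KO/FL mice carry the null copy without Cre. Their library totals were 3541066, 7197389 and 6535737 counts, and KO/FL A had fewer than any Lepr-Cre or FL/FL library. Between KO/FL and FL/FL PreCFU-E edgeR called 0 of 10309 genes, with 350 at an unadjusted p under 0.05, against 4 by DESeq2 and 9 with the block. The count was 1 without FL/FL B or FL/FL C. A count of 0 does not show that the null copy alone left these genes unchanged. Between Lepr-Cre and KO/FL PreCFU-E edgeR called 225 (2.18%), 840 with the block, 122 when Lepr-Cre B and 92 when KO/FL B was left out. These comparisons share libraries with the main one, so values are set side by side and no overlap is counted. Kit had 676, 832 and 653 CPM in KO/FL mice, and the difference of Lepr-Cre from KO/FL mice was -0.71 on the log2 scale (adjusted p = 0.00129). Dusp6 had 6.43, 12.1 and 8.09 CPM and Ccnd1 4.75, 3.06 and 1.35 CPM in KO/FL mice. Myb had 1684, 2005 and 1616 CPM there and Gata2 127, 146 and 127 CPM, with differences of -0.89 (adjusted p = 6.19e-05) and -1.22 (adjusted p = 1.69e-05) of Lepr-Cre from KO/FL mice. Sptb had 149.5, 113 and 110.4 CPM in KO/FL mice, a difference of 1.75 (adjusted p = 3.86e-08), and Fam132b 2.24, 1.81 and 1.35 CPM, a difference of 3.03 (adjusted p = 0.00105). Some genes were higher than in FL/FL mice in all 3 KO/FL libraries without passing in that comparison. Pim1 had 47.5, 48.4 and 34.4 CPM in KO/FL mice and Gab2 115, 72.4 and 85.2 CPM, and Lepr-Cre mice differed from them by 0.76 (adjusted p = 0.04997) and 0.60 (adjusted p = 0.304). For Cish KO/FL libraries were spread, with 0.559, 1.11 and 7.94 CPM, and the difference of Lepr-Cre from KO/FL mice did not pass (adjusted p = 0.1599).

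CFU-E of the same mice allow each change to be set beside the next stage. Between stages the change of Lepr-Cre against FL/FL differed for 38 of 10732 genes (0.354%) by a test of the interaction on all 18 libraries, 23 with a more positive and 15 with a more negative change in PreCFU-E. Mice pair the stages by design, and with the mouse as a replicate block the count was 198. In the same fit, CFU-E alone had 583 genes called between Lepr-Cre and FL/FL (5.43%). Without the FL/FL B, Lepr-Cre A or Lepr-Cre C mouse the number of genes whose change differed between stages was 13, 21 or 23. Several of the risers of PreCFU-E were genes that FL/FL mice raise at the CFU-E stage. Sptb averaged 412 ± 30.4 in Lepr-Cre and 74.3 ± 11.7 CPM in FL/FL PreCFU-E, and 947 ± 165 in Lepr-Cre and 743 ± 161 CPM in FL/FL CFU-E (difference 2.12 on the log2 scale, SE 0.23, adjusted p = 5.47e-05). Lmna averaged 179 ± 7.77 against 79.5 ± 3.79 CPM in PreCFU-E and 321 ± 23.9 against 309 ± 56.5 CPM in CFU-E (difference 1.12 on the log2 scale, SE 0.16, adjusted p = 0.000311). In the same order Add2 averaged 421 ± 10.1 against 229 ± 6.81 CPM and 567 ± 64.7 against 542 ± 21.2 CPM (difference 0.81 on the log2 scale, SE 0.14, adjusted p = 0.00236). For these 3 genes the genotypes differed in PreCFU-E and had close means in CFU-E at a higher level. Gab1 had the same shape, 83.3 ± 6.29 against 32.7 ± 1.54 CPM in PreCFU-E and 117 ± 19.4 against 105 ± 20.9 CPM in CFU-E (difference 1.19 on the log2 scale, SE 0.22, adjusted p = 0.003498). Sec14l2, a lipid-binding protein, averaged 27.3 ± 14.7 against 3.29 ± 1.003 CPM and 114 ± 13.8 against 101 ± 9.56 CPM (difference 2.84 on the log2 scale, SE 0.51, adjusted p = 0.0165). Apoe went the other way, 93.95 ± 14.7 against 359 ± 50.8 CPM in PreCFU-E and 21.6 ± 2.53 against 22.3 ± 4.31 CPM in CFU-E (difference -1.88 on the log2 scale, SE 0.32, adjusted p = 0.00781). Podxl, Cish and Fam132b stayed apart at both stages. In CFU-E, Podxl averaged 361 ± 57.9 in Lepr-Cre and 3.01 ± 1.38 CPM in FL/FL CFU-E, Cish 12.4 ± 1.66 against 0.279 ± 0.386 CPM and Fam132b 24.9 ± 8.52 against 1.71 ± 1.25 CPM. Their interaction did not pass (adjusted p = 0.967 for Podxl, 0.902 for Cish and 0.905 for Fam132b), which does not show that the stages were alike. Myb was lower at both stages, with 438 ± 119 in Lepr-Cre and 847 ± 52.9 CPM in FL/FL CFU-E.

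**Figure D4:**
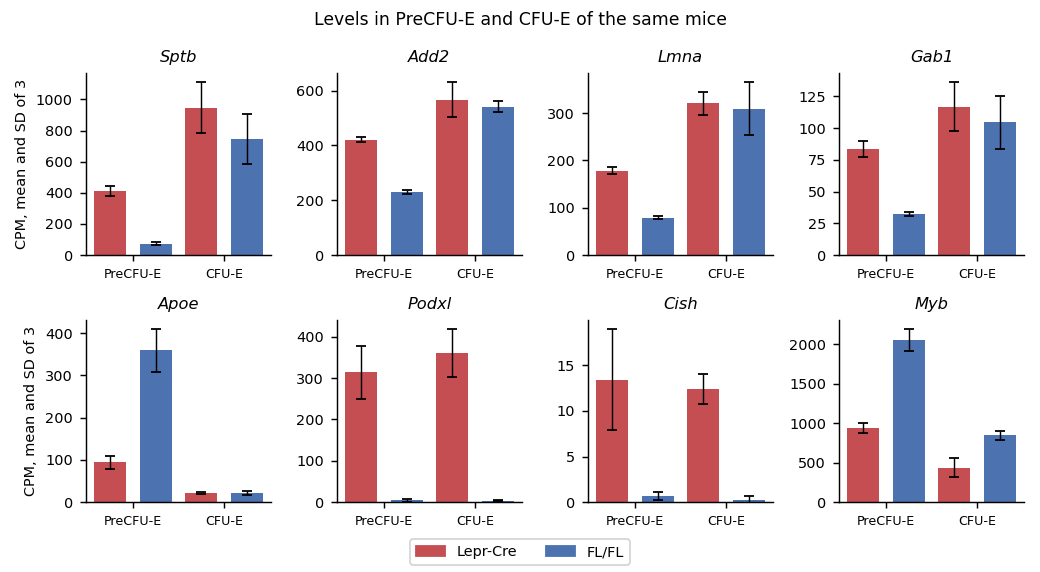
Bars give the mean CPM of 3 libraries and lines their SD for 8 genes, with Lepr-Cre in red and FL/FL in blue at each of 2 stages. For Sptb, Add2, Lmna and Gab1 the genotypes are apart in PreCFU-E and close in CFU-E, for Apoe both are low in CFU-E, and for Podxl, Cish and Myb the genotypes are apart at both stages.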

How the data were processed

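RNA of sorted PreCFU-E and CFU-E was sequenced as total RNA, per the labels' protocols, in which a heading speaks of nuclear extraction while the text describes sorted cells. The authors deposited a table of read counts per gene and a table of RPKM values, and their processing notes name STAR 2.5.2b, HTSeq and the mm10 build. The sources used here give neither the HTSeq version nor its strand setting, so reads of overlapping or antisense genes cannot be told apart. Of 21967 genes 5325 had no count, and 19580 matched GENCODE M21 (GRCm38) by symbol. The length by which the deposited RPKM values were divided was within 10% of the exon length for 3.16% and of the gene span for 8.07% of 15400 genes, so levels between genes were compared only as CPM per kilobase of annotated exon.

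Counts were tested with edgeR 4.0.16 in R 4.3.3: filterByExpr (minimum count 10, total 15), TMM factors and the robust quasi-likelihood test on the 9 PreCFU-E libraries, with Benjamini-Hochberg adjusted p under 0.05 as a call. The SE is the absolute log2 fold change over the square root of F. The interaction of stage and genotype was fitted on 18 libraries. Scripts were tested on simulated data. Alternatives used limma 3.58.1 on log2(RPKM + 1) or log2(RPKM + 0.1), DESeq2 1.42.0, other normalization, filters and samples, sex as a term, male mice alone, each library left out, and the replicate letter as a block. Deviations from the group means had r = 0.154 for like letters A, 0.136 for B and 0.148 for C, and -0.0826 to -0.0589 for unlike letters. Deviations of a genotype sum to 0 over its 3 libraries, so the unlike values follow from the like ones and add no evidence. For the blocked fit the letters were taken to pair the libraries. The labels do not say what the letters mark, and B is also the female replicate. P-values given for genes are from fits without a block. They measure the spread between libraries within a group, which holds any effect of letter or sex. Those of the stage difference leave out the pairing of the stages by mouse.

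The comparison and the 51 gene lists were chosen with earlier results of these data known. Named genes are Kitl and Kit; the 15 largest rises and falls with a mean of at least 5 CPM, and the same with at least 100 CPM, among called genes whose groups do not overlap and whose symbols are not predicted models; up to 6 called members of each list by smallest p; uncalled list members; and the 6 smallest p of the stage difference in each direction. Those of them described were chosen for their roles, and some members are not reported here.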

Additional observations from a re-analysis of the deposited data

Results flagged for a closer look

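For 19 named genes the change of Lepr-Cre against FL/FL differed between PreCFU-E and CFU-E by the interaction test in edgeR, and the differences below are PreCFU-E minus CFU-E on the log2 scale. A positive difference was found for St3gal6 (3.40), Sec14l2 (2.84), Cnn3 (2.35), Sptb (2.12), Btnl10 (1.74), Hpn (1.66), Gab1 (1.19), Lmna (1.12), Lpcat1 (1.09) and Add2 (0.81). A negative one was found for Coro1a (-7.08), Wdfy4 (-2.05), Apoe (-1.88), Man2a2 (-1.87), Mef2c (-1.86), Prkcq (-1.68), Arpc1b (-1.67), Abca2 (-1.35) and Ptprs (-0.92). Coro1a, an actin-binding protein of blood cells, was near 0 in FL/FL CFU-E, with 3.84 ± 2.302 in Lepr-Cre and 0.0392 ± 0.0679 CPM in FL/FL CFU-E, so the size of its difference depends on the prior count.

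Genes of both directions had Lepr-Cre and FL/FL means that changed order between the stages, as for Cnn3, Hpn and Wdfy4 below. Mef2c had a higher Lepr-Cre mean at both stages, by more in CFU-E. Cnn3, calponin 3, averaged 10.1 ± 1.86 in Lepr-Cre and 8.24 ± 0.481 CPM in FL/FL PreCFU-E, and 12.7 ± 2.401 in Lepr-Cre and 53.1 ± 10.2 CPM in FL/FL CFU-E. Hpn, the protease hepsin, averaged 61.97 ± 12.5 against 29.3 ± 6.17 CPM in PreCFU-E and 81.3 ± 8.58 against 122 ± 4.01 CPM in CFU-E. Wdfy4 averaged 72.5 ± 11.9 against 102 ± 2.603 CPM in PreCFU-E and 20.2 ± 8.88 against 6.93 ± 1.81 CPM in CFU-E. Mef2c, a transcription factor, averaged 61.9 ± 5.698 against 52.8 ± 5.74 CPM in PreCFU-E and 26.4 ± 4.16 against 6.32 ± 2.09 CPM in CFU-E.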

How the results depend on the processing

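No named result reversed its direction. Against 632 genes called between Lepr-Cre and FL/FL PreCFU-E (298 higher, 334 lower), the replicate block gave 1586 (856 and 730), limma on log2(RPKM + 1) 247 (95 and 152), on log2(RPKM + 0.1) 231 (88 and 143), without a filter 152 (70 and 82), and male mice alone 193 (89 and 104). Leaving out 1 library of either group gave 371 to 471 genes (166 to 231 higher, 194 to 240 lower), and 635 (302 and 333) without KO/FL A. The other alternatives moved the count by less than 1.5 times. Between KO/FL and FL/FL, 0 genes became 4 with DESeq2, 9 without a filter, 9 with the block and 0 to 1 with a library left out. Between Lepr-Cre and KO/FL, 225 genes became 394 without a filter, 840 with the block, 62, 57 and 36 with the 3 limma fits, 34 in male mice and 92 to 218 with a library left out. The stage difference, 38 genes, became 140 without a filter, 198 with the mouse as a replicate block and 13 to 43 with a mouse left out. The alternatives for the comparisons with KO/FL, and the fit without KO/FL A, were chosen after seeing the data. The cause of these shifts was not tested.

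Of 3215 values of 183 named genes under the alternatives, 2553 stayed on their side of the threshold and 662 lost the call, and 49 genes kept it throughout. Of 918 counts of list members, 609 stayed within 1.5 times. The calls lost were 64 of 144 and 66 of 144 with limma on log2(RPKM + 1) and log2(RPKM + 0.1), 120 of 183 without a filter, 103 of 183 in male mice alone and 36 to 61 of 183 with a Lepr-Cre or FL/FL library left out. Among genes described in the report, these kept their call in every alternative that gave them a value: Kit, Grb2, Gab1, Gab2, Dusp6, Spry4, Spred1, Ccnd1, Ccne1, Pim1, Fam132b, Gata2, Myb, Hhex, Sox6, Il17ra, Zbtb16, Sptb, Add2, Slc29a1, Cpox, Rrm2, Mthfd2, Slc22a3, Slc25a23, Gnaq, Adcy7, Cacna1c, Prkcq, Cpd, Fam124a, Amigo2, St3gal6, Cd24a, Scin, Lmna, Apoe and Vps13c. The other called genes lost it in at least 1. The block ended no call of a gene named in the text. Genes under 5 CPM were called at 1.83%, against 9.91% from 100 CPM, and a 0 in a library allows up to 3 counts, or 0.314 to 0.838 CPM.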

Other observations

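The neighbourhoods of the altered loci were examined after the values had been seen. Within 5 Mb of Kitl on chromosome 10, 14 genes were tested, of which 0 were called higher and 2 lower, against 6.13% called of all genes, namely Dusp6, 748.1 kb away, and Btg1, an antiproliferative gene, 3392.8 kb away. Btg1 averaged 10.3 ± 2.65 in Lepr-Cre and 21.4 ± 6.63 CPM in FL/FL mice. Within 5 Mb of Lepr on chromosome 4, which carries the Cre in Lepr-Cre mice, 26 genes were tested, of which 3 were higher and 0 lower, against the same 6.13%. Among them were Cachd1 (11.3 ± 3.93 against 3.07 ± 2.15 CPM) and Slc35d1, a nucleotide sugar transporter (66.4 ± 8.14 against 41.3 ± 5.01 CPM).

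Of genes without a count in 1 group, C2cd4a had 223 counts in Lepr-Cre and 0 in FL/FL mice, at least 73.5-fold higher, and Nlrp6, an inflammasome gene, had 98 and 0, at least 32.3-fold higher. Ldhd, a lactate dehydrogenase, had 0 in Lepr-Cre and 73 in FL/FL mice, at least 24.6-fold lower. The 3 genes were picked after their values were seen, with edgeR adjusted p of 8.85e-05, 0.00378 and 0.01097.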
